A study of Mus musculus with 18 samples.

Results

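The genes described here are 48 named factors of ribosome biogenesis, the process by which a cell builds its ribosomes. They were chosen by gene symbol, as the probe sets of the array annotated with exactly 1 of the 48 symbols, and all 48 were found among the 19938 genes of the array. Where a symbol had more than 1 probe set, the one with the highest mean was used. The study measured gene expression with Affymetrix arrays in cells of mouse small intestinal crypts, sorted on a Venus reporter of Flattop (Fltp), which acts in planar cell polarity. Reporter-high, reporter-low and reporter-negative cells had 2 arrays each, and every array held RNA of a pool of 2 animals. All 3 gates came from C57Bl6/J mice aged 4 months with the genotype FltpZV/+, so the negative cells carried the reporter allele too. The series lists 18 samples, and the columns of the other 12, from a lineage-tracing line, held no values in the file used, so those samples are not analysed here. Whether arrays of different gates drew on the same animals is not stated, and p-values measure only the spread between these arrays.

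Ribosome production begins in the nucleolus, where RNA polymerase I transcribes the long precursor of the ribosomal RNAs. Small nucleolar ribonucleoproteins then modify that precursor, the box C/D particles by methylation and the box H/ACA particles by pseudouridylation, while assembly factors fold and cut it into the small and the large subunit. Crypt stem cells and transit-amplifying cells divide often and make many ribosomes, and the transcription factor Myc is a known activator of these genes.

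Values are the authors' RMA values on the log2 scale, where a difference of 1 is a 2-fold change. The background level was 4.23, below which the means of 95% of 1203 odorant and related receptor genes lay, and all 48 ribosome biogenesis genes lay above it on all 6 arrays. Median values over all genes lay between 4.82 and 4.95 on the 6 arrays, whose number limits the precision. Across genes, the 2 high arrays correlated at r = 0.946, the low pair at 0.975 and the negative pair at 0.981. Markers of the labelled tissue were looked up: all 8 stem cell, all 8 Paneth and all 7 measured enterocyte markers lay above background on every array. So did all 6 measured goblet and all 8 T cell markers. Lying above background therefore does not show that the pools held crypt epithelium alone. A "called" gene is one with a limma adjusted p under 0.05 over all 19938 genes, and errors of differences are limma standard errors.

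Ribosome biogenesis transcripts were mostly lower in cells with reporter signal than in negative cells, and few of the differences passed the test. The median value over the 48 genes was 6.48 and 6.53 on the high arrays, 6.25 and 6.27 on the low arrays and 6.83 and 6.82 on the negative arrays. The medians of all 4 reporter-positive arrays thus lay below those of both negative arrays. In low against negative cells, 46 of 48 genes had a negative difference, beside 10938 of all 19938. The median was -0.46 against -0.03 over all genes. Nop2, Pes1 and Ddx56 fell and 0 genes rose, which is 6.25% called beside 5.96% of all genes (2.54% lower and 3.42% higher). Since all 48 genes lay above background, a second background was taken. It held 11318 genes with a mean at or above that of the dimmest of the 48. Of these, 9.45% were called (4.30% lower) and 54.1% had a negative difference, with a median difference of -0.05. The share of called genes among the 48 was near that of the array as a whole and below that of the genes as bright. At an unadjusted p under 0.05, 13 of the 48 were lower and 0 higher, beside 9.31% and 9.16% of all genes and 15.1% and 13.4% of those as bright. The arrays of the 2 gates did not overlap for 34 genes that were lower and 1 that was higher in low cells, beside 28.5% and 23% of all genes and 33.1% and 27.2% of those as bright. In high against negative cells, 38 of 48 genes had a negative difference, beside 8110 of all 19938 and 58.7% of those as bright. The median was -0.38 against 0.10 over all genes and -0.14 over those as bright. The median of the 48 was -0.12 after quantile normalization of the gene values, when 30 of 48 differences were negative. Wdr43 was the gene called there, as a decrease, which is 2.08% beside 4.71% of all genes (3.35% lower and 1.36% higher) and 7.93% of those as bright. Of the 48, 10 were lower at an unadjusted p under 0.05 and 0 higher, beside 12.9% and 9.28% of all genes, and 22 were lower and 0 higher without overlap, beside 22.4% and 32.9%. Lower at that p were 20.8% of the 48, against 22.1% of genes as bright, and lower without overlap were 45.8% of the 48, against 35.7% of genes as bright. The share of the 48 lower at an unadjusted p in high cells was thus no higher than that of genes as bright. Over the genes as bright, the median of gate means was 6.033 in high, 6.258 in low and 6.265 in negative cells. Over the 48 it was 6.583, 6.362 and 6.794. The median level was therefore lower in high than in negative cells for the genes as bright too.

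In high against low cells 0 of 48 genes were called by limma, beside 4.91% of all genes (3.89% lower and 1.01% higher) and 7.82% of those as bright. At an unadjusted p under 0.05, 2 of the 48 were lower and 2 higher, or 4.17% each. The shares were 12% and 10.5% of all genes, and 19.2% and 9.96% of those as bright. Arrays did not overlap for 7 genes that were lower (14.6%) and 14 that were higher (29.2%) in high cells. Without overlap were 20.4% lower and 35.3% higher of all genes, and 30.9% and 23.2% of those as bright. The median difference was 0.19 there against 0.13 over all genes and -0.07 over those as bright. Without high replicate 1, 7 genes were called with high set against negative and 3 with high set against low, beside 9.62% and 8.72% of all genes in those fits. Without high replicate 2 the counts were 2 and 1, beside 3.59% and 3.75% of all genes, and without either high array 5 were called in low against negative cells, beside 8.83% of all genes. Without either negative array no member was called in any of the 3 comparisons. Without low replicate 1, Pes1 was the call left in low against negative cells, and without low replicate 2 none was left. The 95% interval of a gene's difference reached a median of 0.62 to either side, and ranged from 0.42 to 1.40. The high and low comparisons share the negative arrays, so their results are not independent of each other. In sorted pools, a lower value from fewer cells of an active type and a lower value per cell cannot be told apart. On 16 genes, or 33.3% of the 48, all 4 reporter-positive arrays lay below both negative arrays, as they did for 12.8% of all genes and 20.4% of those as bright. The heat map of array values shows this pattern gene by gene.

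**Figure D1:**
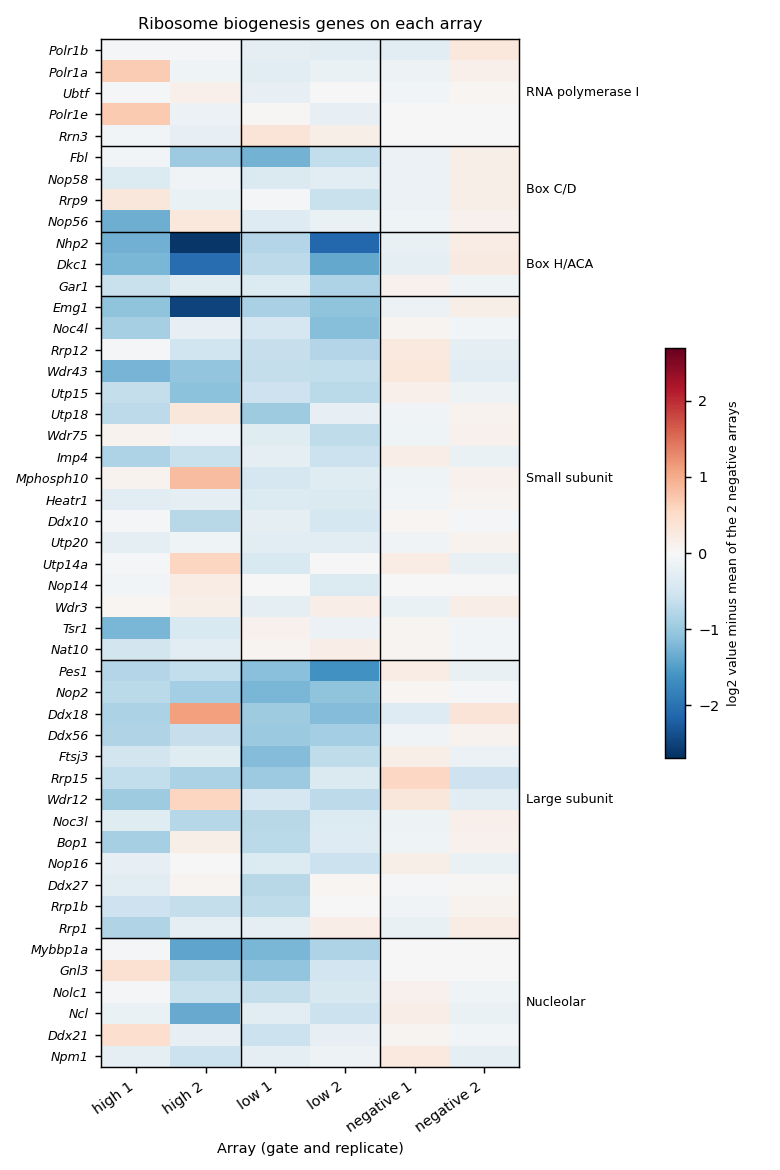
Each row is a ribosome biogenesis gene and each column an array, with colour giving the log2 value minus the mean of the 2 negative arrays of that gene, in 6 role classes. Blue cells prevail on the high and low arrays in the H/ACA and large subunit rows, with Nhp2 on high replicate 2 at 6.58 against 9.02 and 9.40 on the negative arrays, while the RNA polymerase I rows stay pale apart from 2 red cells on high replicate 1.

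The 3 calls of the low gate were all among the 13 factors of the large subunit. Nop2, a methyltransferase of large subunit RNA, had 6.15 and 5.96 on the high arrays, 5.65 and 5.80 on the low arrays and 6.94 and 6.83 on the negative arrays. All 4 reporter-positive arrays lay below both negative arrays, and the low pair was the lower one. It fell by 1.16 ± 0.18 in low cells (limma adjusted p = 0.0171), a fold of 0.447, and in high cells differed from negative cells by -0.83 ± 0.18 (adjusted p = 0.0564). Pes1 encodes pescadillo, which forms with Bop1 and Wdr12 the complex that matures the large subunit RNA. It had 6.87 and 7.0 on the high arrays, 6.55 and 6.03 on the low arrays and 7.87 and 7.47 on the negative arrays, with the low pair lowest, the high pair between and the negative pair highest. Its level fell by 1.38 ± 0.25 in low cells (limma adjusted p = 0.025), and the high minus negative difference was -0.73 ± 0.25 (adjusted p = 0.149). Ddx56, a nucleolar helicase, had 5.64 and 5.84 on the high arrays, 5.45 and 5.53 on the low arrays and 6.35 and 6.55 on the negative arrays. Its 3 gates did not overlap, and it fell by 0.96 ± 0.19 in low cells (limma adjusted p = 0.0323), with -0.71 ± 0.19 in high cells (adjusted p = 0.0879). The calls of Nop2 and Ddx56 were lost without any single negative or low array (adjusted p up to 0.142 and 0.217), and that of Pes1 without either negative array or low replicate 2 (up to 0.178). Ddx56 also lost its call with a mean-dependent prior (adjusted p = 0.0631).

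The other partners of Pes1 were not called. Bop1 had 5.46 and 6.54 on the high arrays, 5.64 and 6.02 on the low arrays and 6.26 and 6.48 on the negative arrays, with high replicate 2 above both negative arrays, and a low minus negative difference of -0.54 ± 0.36 (adjusted p = 0.541). For Wdr12 the values were 4.26 and 5.80 on the high arrays, 4.76 and 4.51 on the low arrays and 5.53 and 4.91 on the negative arrays, and high and negative arrays overlapped, with -0.58 ± 0.48 for low minus negative (adjusted p = 0.671). Ftsj3, a relative of the yeast methyltransferase Spb1, had 5.72 and 5.89 on the high arrays, 5.05 and 5.53 on the low arrays and 6.38 and 6.05 on the negative arrays. Its low arrays lay lowest and its high arrays between, with differences from the negative gate of -0.93 ± 0.24 in low (adjusted p = 0.0761) and -0.40 ± 0.24 in high cells (adjusted p = 0.354). Noc3l, whose yeast relative serves the transport of large subunit precursors, had 4.96 and 4.53 on the high arrays, 4.54 and 4.93 on the low arrays and 5.16 and 5.43 on the negative arrays, with every reporter-positive array below both negative arrays. Its differences of -0.56 ± 0.24 (low) and -0.55 ± 0.24 (high) from negative cells did not pass (adjusted p = 0.291 and 0.246). Ddx18, a relative of the yeast helicase Has1, had 7.91 and 9.87 on the high arrays, 7.79 and 7.58 on the low arrays and 8.40 and 9.12 on the negative arrays. Its 2 high arrays enclosed both negative arrays, and the low arrays lay below all others, so high minus low was 1.20 ± 0.59 (adjusted p = 0.277), the highest of the 48. Among the other large subunit genes, Nop16, Rrp1, Rrp1b, Rrp15 and Ddx27, differences ran from -0.68 (Rrp15) to -0.04 (Rrp1) in low and from -0.77 (Rrp15) to -0.10 (Nop16 and Ddx27) in high cells, with no call. Over the 13 genes, 13 differences were negative in low and 12 in high cells, with medians of -0.58 and -0.54.

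The promoters of the 4 called genes are shown because those genes carry the calls of this set. Each is the RefSeq window of GRCm38.p6 from 250 bases before to 50 bases after the annotated start, 5′ to 3′ along the gene, with the E-box CACGTG, the site that Myc and its partner Max bind, in capitals. Nop2 is at chr6:125131633-125131932 (plus strand), Pes1 at chr11:3963725-3964024 (plus strand), Ddx56 at chr11:6267680-6267979 (minus strand) and Wdr43 at chr17:71615965-71616264 (plus strand).
Nop2: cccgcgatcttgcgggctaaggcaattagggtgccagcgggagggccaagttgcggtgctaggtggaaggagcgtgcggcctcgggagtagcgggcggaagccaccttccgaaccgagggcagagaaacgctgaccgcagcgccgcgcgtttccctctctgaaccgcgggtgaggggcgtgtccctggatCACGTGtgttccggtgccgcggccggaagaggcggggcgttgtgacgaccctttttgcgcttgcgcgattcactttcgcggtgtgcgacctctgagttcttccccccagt
Pes1: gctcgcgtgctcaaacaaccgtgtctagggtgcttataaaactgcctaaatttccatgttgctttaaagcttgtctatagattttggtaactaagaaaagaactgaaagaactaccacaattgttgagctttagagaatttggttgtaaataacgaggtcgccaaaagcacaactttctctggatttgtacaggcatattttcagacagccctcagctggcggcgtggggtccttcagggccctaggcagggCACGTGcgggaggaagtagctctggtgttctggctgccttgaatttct
Ddx56: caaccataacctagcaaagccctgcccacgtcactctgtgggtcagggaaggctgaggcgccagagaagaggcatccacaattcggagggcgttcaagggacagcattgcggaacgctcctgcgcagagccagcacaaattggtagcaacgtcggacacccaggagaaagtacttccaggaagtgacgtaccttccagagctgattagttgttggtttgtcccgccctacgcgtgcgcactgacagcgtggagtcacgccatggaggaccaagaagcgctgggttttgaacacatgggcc
Wdr43: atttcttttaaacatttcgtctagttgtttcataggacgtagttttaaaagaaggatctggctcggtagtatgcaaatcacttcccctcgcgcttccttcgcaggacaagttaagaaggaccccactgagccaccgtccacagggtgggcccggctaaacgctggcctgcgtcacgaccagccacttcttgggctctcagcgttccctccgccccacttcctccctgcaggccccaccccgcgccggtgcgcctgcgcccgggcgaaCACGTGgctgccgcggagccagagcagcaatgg
The E-box stands at -60 in Nop2, 2 in Pes1 and 17 in Wdr43, counted from the start in bases with 0 as the first transcribed base, and none is in the Ddx56 window. A script searched 52 windows of 44 of the 48 genes, since some genes have several starts, for 4 motifs on both strands, each counted on its own even where neighbours overlap. CACGTG, which reads the same on both strands, was in 9 windows (17.3%), against 7.15% of 32851 windows of all genes. CCGGAAG, the core bound by ETS factors, was in 16 windows (30.8%), against 8.86% of all windows. CCAAT was in 36.5% of the windows, against 37.4% of all windows, and TATAAA in 3.85%, against 13.6%. Base composition also differed, with a median GC content of 57.7% against 52.7% for all windows. These matches describe letters and not binding.

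Factors of the small subunit held the call of the high gate. Wdr43 belongs to the group of proteins that joins the nascent precursor RNA first and links transcription to processing. It had 6.87 and 7.07 on the high arrays, 7.48 and 7.46 on the low arrays and 8.41 and 7.84 on the negative arrays, so the high arrays lay lowest, the low arrays between and the negative arrays highest, without overlap. Wdr43 fell by 1.16 ± 0.24 in high cells (limma adjusted p = 0.0447), a fold of 0.449, and low minus negative was -0.66 ± 0.24 (adjusted p = 0.188). That call was lost without any 1 of the 6 arrays (adjusted p from 0.0721 to 0.239) and in 5 other fits (adjusted p up to 0.141). Utp15, Wdr75 and Heatr1 belong to the same group. Utp15 had 5.54 and 5.08 on the high arrays, 5.64 and 5.46 on the low arrays and 6.33 and 6.05 on the negative arrays, with all reporter-positive arrays below both negative arrays and -0.88 ± 0.23 in high cells (adjusted p = 0.086). Wdr75 had 7.16 and 6.97 on the high arrays, 6.75 and 6.39 on the low arrays and 6.95 and 7.20 on the negative arrays, with low arrays lowest and overlap between high and negative arrays, and -0.50 ± 0.21 in low cells (adjusted p = 0.28). Heatr1 differed by -0.38 ± 0.18 in low and -0.26 ± 0.18 in high cells (adjusted p = 0.335 and 0.42), below the negative arrays on all 4 reporter-positive arrays.

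Emg1, a methyltransferase that modifies a pseudouridine of small subunit RNA, had 8.05 and 6.64 on the high arrays, 8.28 and 8.07 on the low arrays and 8.99 and 9.31 on the negative arrays. Reporter-positive arrays lay below negative ones throughout, with high replicate 2 far below high replicate 1. The differences from negative cells were -1.80 ± 0.43 in high (adjusted p = 0.0687) and -0.98 ± 0.43 in low cells (adjusted p = 0.297), and high minus low, at -0.82 ± 0.43, was the lowest of the 48. Imp4 and Mphosph10 are subunits of a single complex of the early small subunit precursor. Imp4 had 7.03 and 7.25 on the high arrays, 7.60 and 7.28 on the low arrays and 8.04 and 7.67 on the negative arrays, lowest in high cells, with -0.72 ± 0.23 for high minus negative (adjusted p = 0.128). Mphosph10 had 6.70 and 7.45 on the high arrays, 6.15 and 6.28 on the low arrays and 6.49 and 6.72 on the negative arrays, lowest in low cells and overlapping between high and negative cells. For Mphosph10 high minus negative was 0.47 ± 0.27 (adjusted p = 0.356), the highest of the 48, so the 2 subunits differed in sign in that comparison without a call for either. Tsr1, which acts late in small subunit maturation, had 5.46 and 6.28 on the high arrays, 6.82 and 6.55 on the low arrays and 6.76 and 6.63 on the negative arrays. Only the high arrays lay apart, with -0.83 ± 0.29 against negative cells (adjusted p = 0.164). Nat10, the acetyltransferase of small subunit RNA, had 5.49 and 5.69 on the high arrays, 6.05 and 6.17 on the low arrays and 6.06 and 5.92 on the negative arrays, and was likewise lower on both high arrays than on all others, with -0.40 ± 0.19 (adjusted p = 0.261).

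Rrp12, whose yeast relative serves the export of subunit precursors, had 6.16 and 5.66 on the high arrays, 5.57 and 5.40 on the low arrays and 6.45 and 5.94 on the negative arrays, lowest in low cells, with -0.71 ± 0.26 (adjusted p = 0.202). Noc4l, whose yeast relative pairs with that of Nop14, had 6.51 and 7.19 on the high arrays, 6.95 and 6.26 on the low arrays and 7.49 and 7.32 on the negative arrays. All reporter-positive arrays of Noc4l lay below both negative arrays, and low minus negative was -0.80 ± 0.32 (adjusted p = 0.233). Nop14 itself differed by -0.19 in low and 0.06 in high cells. Wdr3, Utp14a, Utp18, Utp20 and Ddx10 completed the class, with differences from -0.59 (Utp18) to -0.04 (Wdr3) in low and from -0.40 (Ddx10) to 0.28 (Utp14a) in high cells and no call. Wdr3, among the 4 genes of the set that varied least over the gates, had 5.27 and 5.36 on the high arrays, 4.95 and 5.40 on the low arrays and 5.03 and 5.40 on the negative arrays, with overlap between all gates. Over the 17 small subunit genes, 16 differences were negative in low and 13 in high cells, with medians of -0.39 and -0.29.

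**Figure D2:**
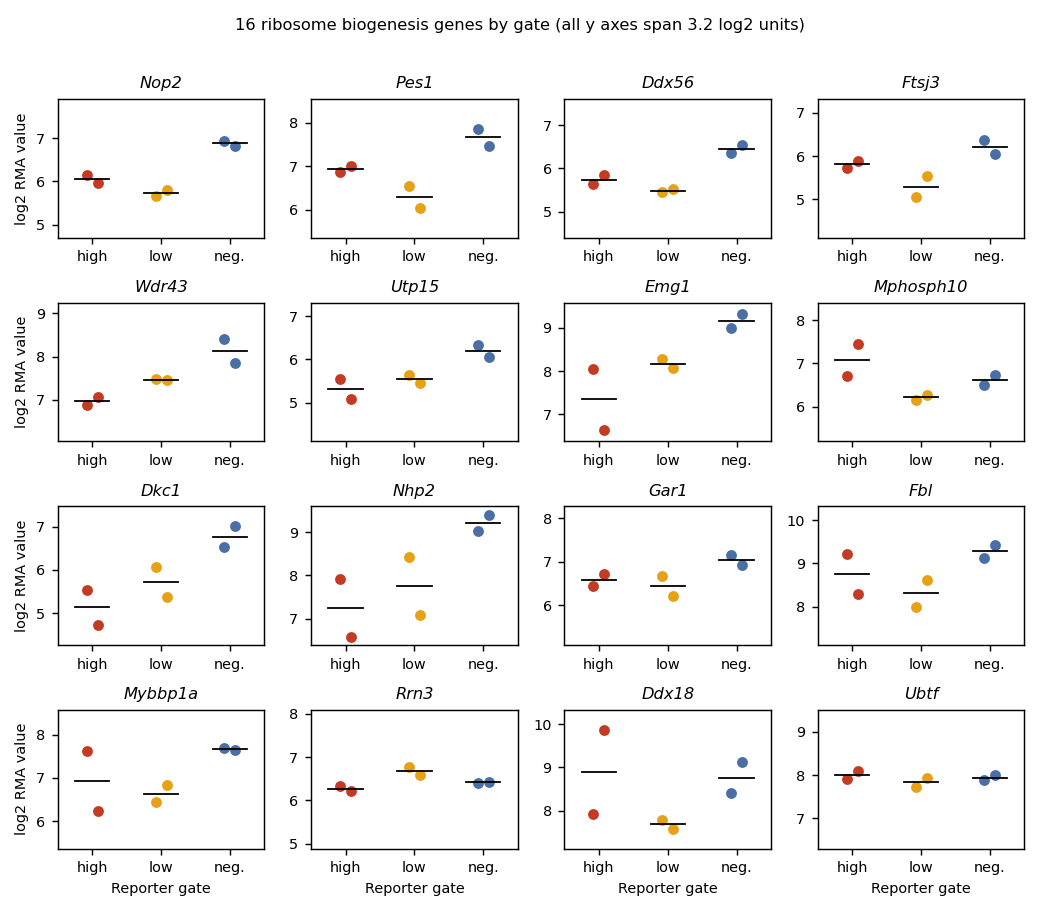
Points are the log2 RMA values of the 2 arrays of each gate (high, low and negative, left to right) for 16 genes, and lines are gate means, with every vertical axis spanning the same log2 range. Nop2, Pes1, Ddx56 and Wdr43 show negative arrays above all reporter-positive arrays, Ubtf shows overlapping gates, and Ddx18 shows high arrays at 7.91 and 9.87 on either side of the negative arrays.

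The box H/ACA particles isomerise uridines of ribosomal RNA to pseudouridine and also form part of telomerase. Dkc1, the pseudouridine synthase dyskerin, had 5.55 and 4.72 on the high arrays, 6.06 and 5.38 on the low arrays and 6.53 and 7.01 on the negative arrays, and the reporter-positive arrays all lay below the negative arrays. The difference from negative cells was -1.64 ± 0.36 in high cells, a fold of 0.321, with an adjusted p of 0.0537 by limma, just above the threshold, and -1.05 ± 0.36 in low cells (adjusted p = 0.17). It was called in high cells when dim genes were left out (adjusted p = 0.0383) and with a mean-dependent prior (adjusted p = 0.0481). With arrays centred on their medians it was called too (adjusted p = 0.0495). Dkc1 stayed uncalled with a robust prior, the 4 arrays of the 2 gates, averaged probe sets, quantile normalization, array weights or a replicate block. It was also uncalled without any single array other than high replicate 1. Nhp2, a core partner of dyskerin, had 7.91 and 6.58 on the high arrays, 8.42 and 7.09 on the low arrays and 9.02 and 9.40 on the negative arrays. It lay lower on every reporter-positive array than on the negative arrays, and had the lowest difference of the 48 from negative cells in both gates, -1.96 ± 0.55 in high and -1.45 ± 0.55 in low cells. The 2 low arrays of Nhp2 differed by 1.32, the widest low pair of the 48, and neither difference was called (limma adjusted p = 0.1 and 0.211). Gar1, a further core partner, had 6.44 and 6.72 on the high arrays, 6.66 and 6.21 on the low arrays and 7.15 and 6.93 on the negative arrays, again below the negative arrays on all 4. Its differences were -0.46 ± 0.23 in high and -0.60 ± 0.23 in low cells (adjusted p = 0.298 and 0.223). For all 3 H/ACA genes the low and the high arrays each lay below the negative arrays without overlap, and 0 of 3 were called. In low cells 28.5% of all genes and 33.1% of those as bright were lower without overlap. In high cells the shares were 22.4% and 35.7%.

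Box C/D particles add methyl groups to ribosomal RNA, and Fbl encodes their methyltransferase, fibrillarin. Fbl had 9.21 and 8.30 on the high arrays, 8.0 and 8.61 on the low arrays and 9.13 and 9.43 on the negative arrays, with low arrays below the negative arrays and overlap between high and negative arrays. Low minus negative was -0.97 ± 0.35 (adjusted p = 0.191) for Fbl, and high minus negative -0.52 ± 0.35 (adjusted p = 0.41). Nop56 and Nop58, the paired scaffold proteins of the particle, differed by -0.26 ± 0.47 and -0.35 ± 0.21 in low and by -0.52 ± 0.47 and -0.23 ± 0.21 in high cells, with no call. Nop56 values were 7.15 and 8.74 on the high arrays, 8.11 and 8.29 on the low arrays and 8.36 and 8.57 on the negative arrays, and its high arrays again enclosed the other gates. Rrp9, a protein specific to the particle that guides early cleavages, had differences of -0.33 ± 0.28 in low and 0.06 ± 0.28 in high cells. Of these 4 genes, 4 differences were negative in low and 3 in high cells, and 0 were called in either.

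Of the 5 RNA polymerase I genes, 0 were called in any comparison, and the class medians were -0.11 in low and 0.06 in high cells. Rrn3, the factor that makes the polymerase competent to initiate, had 6.34 and 6.21 on the high arrays, 6.77 and 6.59 on the low arrays and 6.42 and 6.43 on the negative arrays. Both low arrays were above all others, at 0.26 ± 0.18 over negative cells (adjusted p = 0.584), the highest low minus negative difference of the 48. Ubtf, which binds and opens ribosomal DNA, had 7.92 and 8.09 on the high arrays, 7.72 and 7.94 on the low arrays and 7.88 and 8.01 on the negative arrays, with overlap of all gates and differences of -0.11 ± 0.19 in low (95% interval -0.56 to 0.34) and 0.06 ± 0.19 in high cells (95% interval -0.39 to 0.51). Polr1a, the largest polymerase subunit, had 7.04 and 6.21 on the high arrays, 6.04 and 6.17 on the low arrays and 6.20 and 6.48 on the negative arrays, with high replicate 1 above the rest. Polr1b, the second subunit of the catalytic core, had 5.34 and 5.35 on the high arrays, 5.15 and 5.11 on the low arrays and 5.11 and 5.67 on the negative arrays, with overlap between high and negative cells. Polr1e differed by -0.10 ± 0.30 in low and 0.28 ± 0.30 in high cells (adjusted p = 0.944 and 0.605). Whether this class differs from the other classes was not tested.

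Abundant nucleolar proteins that serve several steps were lower in low cells by sign, with 6 of 6 differences negative and 0 called. Mybbp1a, a Myb-binding protein that also regulates ribosomal RNA synthesis, had 7.61 and 6.24 on the high arrays, 6.43 and 6.84 on the low arrays and 7.69 and 7.66 on the negative arrays. High replicate 1 lay close to the negative arrays while high replicate 2 was the lowest array, so the low arrays lay between the 2 high arrays. Its differences were -1.04 ± 0.42 in low and -0.75 ± 0.42 in high cells (adjusted p = 0.251 and 0.34). Gnl3, or nucleostemin, a nucleolar GTPase of stem and dividing cells, had 7.69 and 6.51 on the high arrays, 6.20 and 6.75 on the low arrays and 7.27 and 7.26 on the negative arrays, with high replicate 1 above both negative arrays and high replicate 2 between the low arrays. Low minus negative was -0.79 ± 0.39 for Gnl3 (adjusted p = 0.366). Ncl, the RNA-binding protein nucleolin, had 9.61 and 8.42 on the high arrays, 9.48 and 9.20 on the low arrays and 9.96 and 9.60 on the negative arrays, with low arrays below both negative arrays and -0.44 ± 0.39 (adjusted p = 0.691). Npm1, the histone and ribosomal protein chaperone nucleophosmin, had 9.09 and 8.73 on the high arrays, 9.06 and 9.19 on the low arrays and 9.59 and 9.06 on the negative arrays, and its gates overlapped in low against negative cells. The helicase gene Ddx21 and the snoRNP chaperone gene Nolc1 differed by -0.40 ± 0.27 and -0.54 ± 0.24 in low and by 0.12 ± 0.27 and -0.33 ± 0.24 in high cells, with no call.

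**Figure D3:**
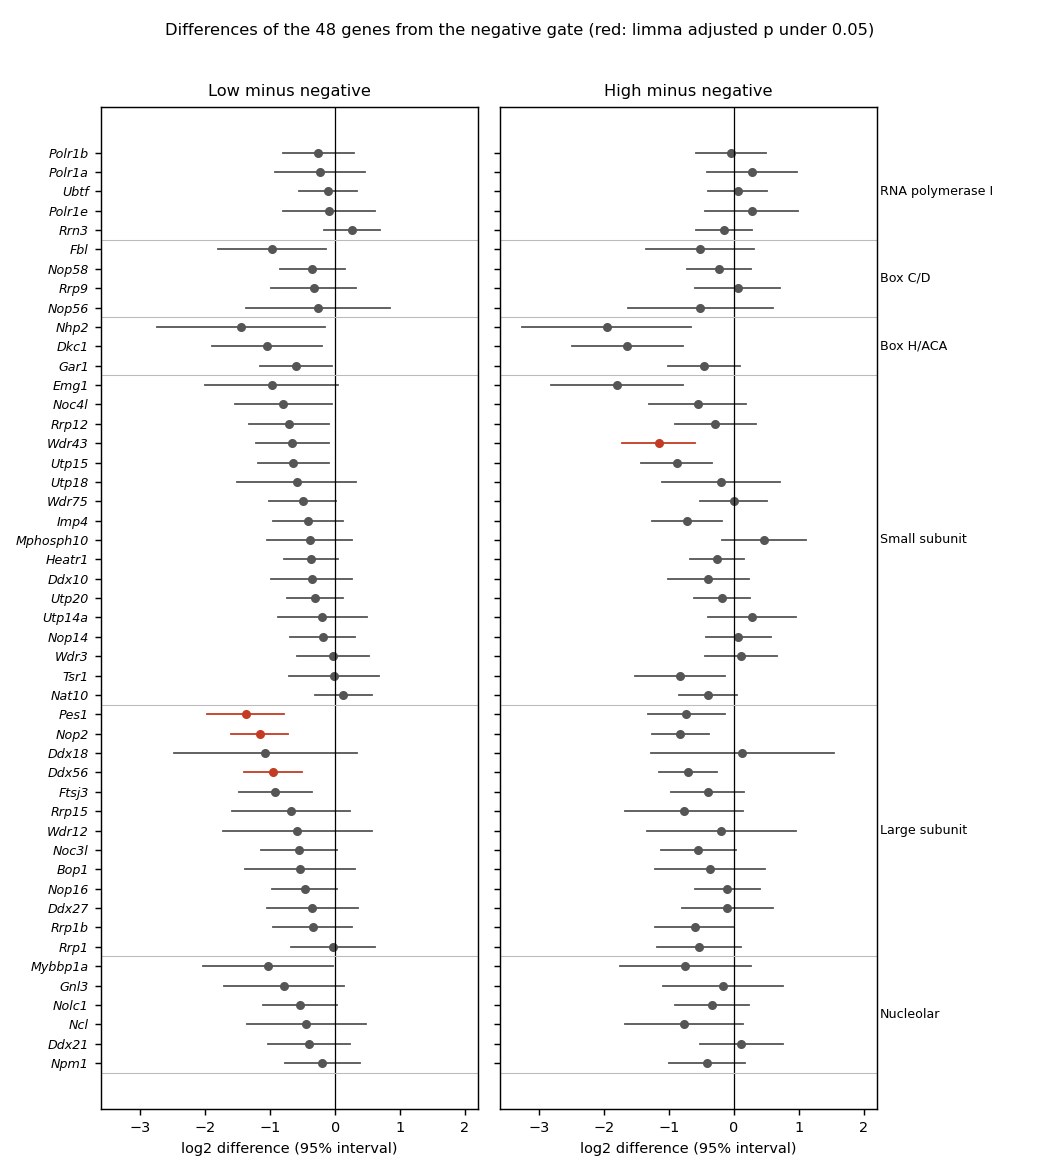
Points are log2 differences of each of the 48 genes from the negative gate in low cells (left) and high cells (right), bars are 95% intervals of limma, and red marks an adjusted p under 0.05. In low cells 46 of 48 points lie below 0 with Pes1, Nop2 and Ddx56 in red, and in high cells 38 lie below 0 with Wdr43 in red.

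Replicates of these genes differed more on the high arrays than on the others. The 2 arrays of a gate differed by a median of 0.48 over the 48 genes in high, 0.28 in low and 0.26 in negative cells, and over all genes by 0.31 in high, 0.20 in low and 0.19 in negative cells. More than 0.5 separated the high arrays for 22 genes, the low arrays for 11 and the negative arrays for 7. Fbl, Ddx18 and Wdr12 have a further probe set each. The unused probe set of Fbl gave -0.42 for low minus negative and -0.21 for high minus negative, with the sign of the one used. For Ddx18 it gave -0.82 and -0.58, so the high minus negative difference had the opposite sign to the 0.13 of the probe set used, and high minus low was 0.24 in place of 1.20. For Wdr12 it gave -0.73 and -0.79.

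Further genes of the same machinery were lower by sign as well, with few calls. Of 100 other assembly factors measured, 2 fell in low cells, Mrto4 and Nol9, and 5 in high cells, and 0 rose in either, with median differences of -0.38 and -0.45. These are 2% and 5% called, beside 5.96% and 4.71% of all genes and 9.45% and 7.93% of those as bright. Dimt1 was higher by 1.05 ± 0.22 in high than in low cells (limma adjusted p = 0.0474). Its call was lost in 4 of 8 fits with other settings on full gates and in 5 of 6 with an array left out. The mean of Dimt1 was not above background, so the fit without dim genes did not hold it. Mrto4, a large subunit factor, had 6.59 and 5.92 on the high arrays, 5.33 and 5.85 on the low arrays and 7.28 and 7.10 on the negative arrays, and fell by 1.60 ± 0.29 in low cells (limma adjusted p = 0.0257), and Nol9, a polynucleotide kinase of ribosomal RNA processing, by 1.17 ± 0.25 (adjusted p = 0.0447). Both were lost without any single low or negative array. In high cells Isg20l2, a nuclease that trims precursor RNA, fell by 1.67 ± 0.25 from negative cells, Exosc2, a subunit of the RNA exosome, by 1.46 ± 0.24, Nip7, a large subunit factor, by 1.44 ± 0.23 and Rsl24d1, a relative of a ribosomal protein, by 1.16 ± 0.20 (limma adjusted p from 0.0206 to 0.0268). Isg20l2 had 4.52 and 4.83 on the high arrays, 5.69 and 5.11 on the low arrays and 6.43 and 6.27 on the negative arrays, with high arrays lowest and negative arrays highest. Without either negative array 0 of these assembly factors were called, and without high replicate 1 the high against negative count was 14 lower and 1 higher. Of 17 further RNA polymerase I genes, Taf1d fell in low cells and 0 were called in high against negative cells, with Taf1b and Znrd1 lower in high than in low cells. Called were 5.88%, 0% and 11.8% of the 17 in these 3 comparisons, beside 5.96%, 4.71% and 4.91% of all genes. The medians of these 17 were -0.19 in low and -0.68 in high cells, where 14 differences were negative. There 7 were lower and 1 higher at an unadjusted p under 0.05, beside 12.9% and 9.28% of all genes. Taf1b, a subunit of the promoter selectivity factor, had 4.51 and 4.35 on the high arrays, 5.98 and 5.56 on the low arrays and 5.57 and 5.28 on the negative arrays, lowest in high cells, and was lower by 1.34 ± 0.22 in high than in low cells (adjusted p = 0.0222). All 3 of these calls were lost when either negative or either low array was left out, and that of Taf1d also when its probe sets were averaged.

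Ribosomal proteins themselves were mostly lower by sign in both reporter-positive gates, and calls were found among those of the mitochondrial ribosome. Of 54 cytosolic ribosomal protein genes measured, 0 were called in any comparison by limma. At an unadjusted p under 0.05, 9 were lower in low and 21 lower in high than in negative cells. Beside these stood 9.31% and 12.9% of all genes, and 15.1% and 22.1% of the second background. With high set against low, 10.5% of all genes were higher at that p and 12% lower, against 2 and 0 of the 54. Without high replicate 1, 9 were called lower in high than in negative cells. Differences were negative for 53 in low and 52 in high cells, with medians of -0.34 and -0.49. Of the 78 listed genes, the others had no probe set of that symbol alone. Of 76 mitochondrial ribosomal protein genes, 13 fell in low and 16 in high cells and 0 rose, with medians of -0.78 and -0.71. These are 17.1% and 21.1% called, beside 5.96% and 4.71% of all genes and 9.45% and 7.93% of the second background. Mrpl20 had 6.52 and 6.26 on the high arrays, 6.46 and 6.84 on the low arrays and 7.94 and 7.83 on the negative arrays, without overlap of negative and other arrays, and fell by 1.50 ± 0.21 in high and 1.23 ± 0.21 in low cells (limma adjusted p = 0.0186 and 0.0225). Mrpl42 fell by 1.67 ± 0.25 in low cells and Mrpl46 by 1.47 ± 0.23 in high cells (adjusted p = 0.0134 and 0.0219). Leaving out 1 array gave 0 to 26 mitochondrial calls in low and 0 to 21 in high cells, with 0 in both without either negative array, and quantile normalization gave 4 in high cells. The difference between the 2 kinds of ribosomal protein was not tested.

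Myc, the known activator of ribosome biogenesis genes, had 8.83 and 9.51 on the high arrays, 7.97 and 8.60 on the low arrays and 9.68 and 10.30 on the negative arrays. Negative arrays were highest and low arrays lowest, and Myc fell by 1.70 ± 0.35 in low cells (limma adjusted p = 0.0374), a fold of 0.307. High minus negative was -0.82 ± 0.35 (adjusted p = 0.226), and the low call was lost after quantile normalization (adjusted p = 0.0762) or without any single low or negative array (adjusted p up to 0.221). Of the 13 genes of the Myc network, Mlx also fell in low cells and Mlxipl in high cells, and 0 rose in either. Called were 15.4% of the 13 in low and 7.69% in high cells, beside 5.96% and 4.71% of all genes. The median of the 13 was 0.03 in low and -0.06 in high cells. In low cells 7 differences were positive, and 3 genes were higher at an unadjusted p under 0.05, beside 9.16% of all genes. The Mlx call was lost without any single low or negative array and that of Mlxipl without either negative array. With high set against low, Mlxipl was lower by 1.48 ± 0.206 and Max by 1.33 ± 0.235 (limma adjusted p = 0.0115 and 0.0275). The Max call was lost when only the 4 arrays of those gates were fitted (adjusted p = 0.0762). It was also lost without any single negative or low array or without high replicate 2. Of 30 growth and metabolism genes that Myc is known to activate, 7 fell and Ppat rose in low cells. In high cells 11 fell and 0 rose, and the medians were -0.84 in low and -0.90 in high cells. These are 26.7% and 36.7% called, beside 5.96% and 4.71% of all genes and 9.45% and 7.93% of the second background. Tfrc, the transferrin receptor gene, had 6.92 and 7.09 on the high arrays, 6.73 and 6.50 on the low arrays and 8.48 and 8.69 on the negative arrays, and fell by 1.57 ± 0.20 in high and 1.97 ± 0.20 in low cells (limma adjusted p = 0.0155 and 0.00367). Mthfd1, an enzyme gene of folate metabolism for nucleotide synthesis, fell by 1.55 ± 0.20 in high and 1.63 ± 0.20 in low cells (adjusted p = 0.0163 and 0.00654). Without negative replicate 1 or 2 the counts in this list were 1 and 0 lower in low cells and 0 in high cells.

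**Figure D4:**
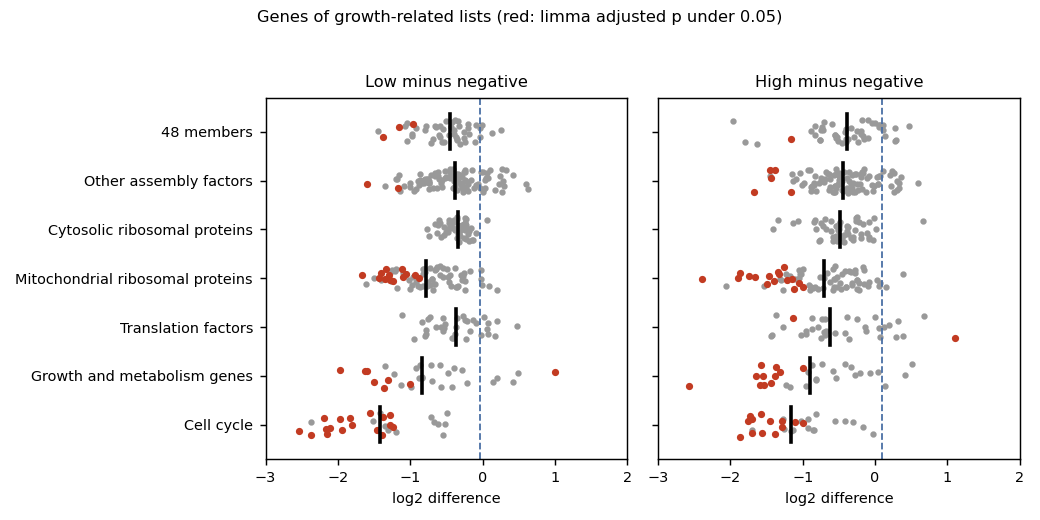
Each point is a gene, placed by its log2 difference from the negative gate in low cells (left) and high cells (right), black bars are list medians, the dashed line is the median of all 19938 genes and red marks an adjusted p under 0.05. Cell cycle medians of -1.42 (low) and -1.16 (high) lie farthest from the dashed line, and the 48 members have medians of -0.46 and -0.38.

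Markers of proliferation and of other cell types moved with the gates, and their part in the values above was not tested. Over all genes 5.96% were called in low and 4.71% in high against negative cells. Of 29 cell cycle genes measured, 17 fell in low (58.6%) and 13 in high cells (44.8%), with medians of -1.42 and -1.16. The median over the list was 5.83 and 5.47 on the high, 5.33 and 5.35 on the low and 6.91 and 6.96 on the negative arrays. Mki67, a marker of cycling cells, had 7.14 and 6.60 on the high arrays, 6.39 and 6.04 on the low arrays and 8.29 and 8.03 on the negative arrays, with all reporter-positive arrays below both negative arrays. Without either negative array 3 and 2 of the low calls and 0 of the high calls of that list were left. The 8 enteroendocrine markers had medians of 5.46 and 5.18 on the high, 9.74 and 9.74 on the low and 4.23 and 4.16 on the negative arrays, and 8 of 8 rose in low cells. Paneth markers had medians of 12.61 and 12.35 on the high, 11.70 and 11.82 on the low and 9.25 and 9.10 on the negative arrays, with 8 of 8 called higher in each reporter-positive gate. T cell markers, all 8 above background on every array, had medians of 6.65 and 6.87 on the high, 10.44 and 10.32 on the low and 8.69 and 8.89 on the negative arrays, so they moved in opposite directions in the 2 reporter-positive gates (7 of 8 called higher in low and 8 of 8 lower in high cells). Of 8 myeloid markers, 3 were called higher in low and 2 lower in high cells, and of 6 B and plasma cell markers 2 were lower in each. Stem cell markers had medians of 6.90 and 7.44 on the high, 6.48 and 6.46 on the low and 7.08 and 7.08 on the negative arrays, with 8 of 8 differences negative in low cells, where Slc12a2 and Rnf43 fell, and 6 of 8 negative in high cells. Lgr5 was the stem cell marker called higher in high cells (adjusted p = 0.0447, lost in 5 of 6 fits with an array left out).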

How the data were processed

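The authors' deposited values come from RMA in Affymetrix Expression Console 1.3.0.187, per the submitters' processing notes, and were read as log2 values from their range; the options of RMA are not stated. Per the labels' protocols, a column kit gave the RNA, which was amplified over whole transcripts and biotin-labelled. The platform annotation gave 21789 of 35556 probe sets 1 symbol, 1621 several, and did not list 12146; of the 21789, 21698 were found by gene ID in the RefSeq table of GRCm38.p6, used for names. For 999 genes with several, the probe set of highest mean was kept, leaving 19938 genes. Genes were tested with limma 3.58.1 (lmFit, eBayes) in R 4.3.3, in a single fit of 3 group means over 6 arrays with 3 residual degrees of freedom, two-sided, with Benjamini-Hochberg adjustment over all 19938 genes and a threshold of 0.05. The 48 genes, their 6 role classes and the other lists were chosen with earlier results of these data known. Full values are given for the 20 genes with the smallest F-test p over the gates, the first of each class, the extremes of each comparison and the 4 least changed (Wdr3, Ubtf, Nop56 and Polr1b); others given in full (Bop1, Wdr12, Gnl3, Ncl, Npm1 and Polr1a) are outside the rule and were picked with their values in view. From each other list, up to 4 called genes were named, with Myc, Mki67 and Lgr5 as landmarks. In simulated data for the same 19938 genes with 200 changed, 22% of 2-fold and 97% of 4-fold changes were recovered in low against negative cells, the same shares in high against negative cells, and 16% and 95% in high against low cells. Each simulated gene had the same spread on all 6 arrays. In the data replicates differed more in high (median 0.31 over all genes) than in negative cells (0.19). The simulation therefore cannot give the recovery for the high gate, and its number of changed genes was set in advance. Other settings tried were another prior, fits of 4 arrays, dropping dim genes, averaging probe sets, other scalings, array weights, a block for the replicate number, and dropping each array in turn. Replicate numbers come from the sample titles; deviations of replicate 1 from the gate means correlated at 0.103, 0.102 and 0.079 between the gates, and the numbers were not taken to pair samples. Python 3.11.15, pandas 2.3.3 and matplotlib 3.10.9 made tables and plots, and promoters are from RefSeq.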

Additional observations from a re-analysis of the deposited data

How the results depend on the processing

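Leaving out an array leaves its gate with a single sample, which is then assumed to vary like the others, and the fewer arrays alone can lower the counts; the cause of the changes below was not tested. Called genes among the 48 numbered 3 in low against negative cells (5 with the 4 arrays of the 2 gates only, beside 8.83% of all genes, 0 to 5 when an array was left out), 1 in high against negative cells (3 without dim genes, beside 8.16% of all genes, 3 with arrays centred on their medians, beside 5.61%, 0 with the 4 arrays only, 0 after quantile normalization, 0 with array weights, 0 to 7 when an array was left out) and 0 in high against low cells (0 to 3 when an array was left out). With the replicate number as a block, 3, 0 and 0 genes were called, so Wdr43 lost its call (0 in high against negative cells); samples sharing a number are not known to be paired. Over all genes, the counts with an array left out were 187 to 1761, 13 to 1919 and 381 to 1739, against 1188, 939 and 978, and array weights gave 2150, 620 and 607. Median differences of the 48 kept their sign: -0.46 in low against negative cells (-0.54 with centred arrays, -0.42 after quantile normalization, -0.46 to -0.41 when an array was left out), -0.38 in high against negative cells (-0.48 centred, -0.12 after quantile normalization, -0.41 to -0.29 when an array was left out) and 0.19 in high against low cells (0.41 after quantile normalization, 0.11 to 0.21 when an array was left out). Of 2160 values of single genes under an alternative, 2112 kept their side of the threshold, 25 gained and 23 lost a call, and no called difference changed sign. The main calls were those of Nop2, Pes1, Ddx56 and Wdr43, and all 23 losses were theirs. Most of the 2112 values were uncalled in the main fit too, so their number does not measure how stable the calls were. No detection calls were used, and dim values of RMA are compressed.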

Other observations

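Among 34 translation factor genes, 1 rose and 1 fell in high against negative cells, and both encode parts of cap-dependent initiation. That is 5.88% called, beside 4.71% of all genes. Eif4e, the cap-binding protein, had 6.07 and 5.94 on the high arrays, 7.24 and 7.19 on the low arrays and 7.20 and 7.08 on the negative arrays, with both high arrays below all others. It was lower by 1.14 ± 0.18 in high than in negative cells and by 1.21 ± 0.18 than in low cells (limma adjusted p = 0.0226 and 0.0139), but not when its probe sets were averaged (adjusted p = 0.175 and 0.363). Eif4ebp1, which binds and inhibits that protein, had 7.31 and 7.43 on the high arrays, 5.92 and 6.12 on the low arrays and 6.31 and 6.22 on the negative arrays, with both high arrays above all others. It was higher in high cells by 1.10 ± 0.18 over negative and 1.35 ± 0.18 over low cells (limma adjusted p = 0.0261 and 0.0107). With a mean-dependent prior or only the 4 arrays of the 2 gates, its call over negative cells was lost (limma adjusted p up to 0.0543). Without either negative array the calls of both genes against negative cells were lost (adjusted p up to 0.179), and without either low array those against low cells (up to 0.0939); the Eif4ebp1 call against negative cells was also lost without either low array or high replicate 2. Ppat, the first enzyme of purine synthesis, had 4.94 and 5.32 on the high arrays, 7.62 and 7.38 on the low arrays and 6.52 and 6.47 on the negative arrays, with low arrays highest and high arrays lowest, and fell by 2.37 ± 0.21 in high relative to low cells (limma adjusted p = 0.00208), a call that held without any 1 of the 6 arrays. Of 18 listed targets of p53, the factor that responds to disturbed ribosome assembly, 16 were measured, and Cdkn1a and Bax were not. Among the 16, 0 were called in low or high against negative cells. At an unadjusted p under 0.05, 3 were higher and 2 lower in low cells, beside 9.16% and 9.31% of all genes. In high cells 4 were higher and 2 lower at that p, beside 9.28% and 12.9% of all genes. Differences of the 16 ran from -0.57 to 2.11 in low and from -0.81 to 2.27 in high cells, and p53 activity was not tested. Aen, a nucleolar nuclease gene of that list, had 5.71 and 5.65 on the high arrays, 4.52 and 4.72 on the low arrays and 4.89 and 4.87 on the negative arrays, and was higher by 1.06 ± 0.18 in high than in low cells (limma adjusted p = 0.0241), a call lost in 5 of 6 fits with an array left out.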
